A study of Mus musculus with 20 samples.

Results

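The genes of prostanoid and leukotriene synthesis and signaling were followed in the abdominal aorta of WT and *Plod1-/-* mice that had received saline or Ang II (angiotensin II) by pump. The set is a list of 9 symbols. It holds *Ptgs1*, *Ptgs2*, *Ptges*, *Ptgis*, *Tbxas1*, *Ptgir*, *Ptger4*, *Alox5* and *Alox5ap*, all of which were found among the 43422 Ensembl genes measured in each mouse. *Plod1* encodes lysyl hydroxylase 1 (LH1), an enzyme that modifies collagen lysines, and the study asked how its loss changes the response of the aorta to Ang II, a peptide hormone that raises blood pressure and is infused to induce aneurysms. RNA was sequenced from 20 mice, whose strain is C57BL/6 by the labels and C57Bl/6NCrl by the methods of the study, 5 in each of 4 groups. Mice with intact *Plod1* formed the WT saline and WT Ang II groups, and mice with the knockout formed the *Plod1-/-* saline and *Plod1-/-* Ang II groups. Subcutaneous osmotic pumps delivered saline or 1000 ng/kg of Ang II per minute for 14 days. The labels give an age of 6 months for every mouse, whereas the methods of the study give a younger age at pump implantation. By these methods the mice were male littermates of heterozygous crosses, and the labels do not say which of them had an aneurysm.

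Values are FPKM, fragment counts scaled to transcript length and to the mapped reads of the library, so that levels can be compared between genes. Depth is unknown, because the values hold no read counts. *Plod1*, the targeted gene, lay between 22.8 and 29.7 FPKM in the 10 WT mice and between 0 and 0.0415 FPKM in the 10 *Plod1-/-* mice. Mitochondrial genes took a median of 9.92% of the FPKM sum in WT saline, 24.5% in WT Ang II, 13.9% in *Plod1-/-* saline and 11.9% in *Plod1-/-* Ang II mice. The study describes male mice, and 2 libraries held *Xist* RNA above 1 FPKM, namely *Plod1-/-* saline mouse 5 (15.1 FPKM) and *Plod1-/-* Ang II mouse 1 (7.93 FPKM). A further library stood apart within its group. WT Ang II mouse 1 had a summed level of 12 macrophage markers of 1887 FPKM, against 327 to 480 FPKM in the other WT Ang II mice. Several calls changed when these libraries were left out, and values without them are given for the main ones.

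Prostanoids and leukotrienes are lipid mediators made from arachidonic acid, which phospholipases release from membranes. The cyclooxygenases, encoded by *Ptgs1* (the constitutive form) and *Ptgs2* (the inducible form), convert arachidonic acid into an unstable endoperoxide, from which terminal synthases make the individual prostanoids. *Ptges* encodes the inducible microsomal prostaglandin E synthase. *Ptgis* encodes prostacyclin synthase, abundant in the vessel wall, whose product relaxes smooth muscle and inhibits platelets, whereas *Tbxas1* encodes thromboxane synthase, typical of platelets and macrophages, whose product constricts vessels and activates platelets. *Ptgir* encodes the prostacyclin receptor, and *Ptger4* one of the prostaglandin E receptors. In the other branch, *Alox5* encodes 5-lipoxygenase and *Alox5ap* its activating membrane protein FLAP, which together start leukotriene synthesis and are typical of myeloid cells.

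Because *Ptgs1* and *Ptgs2* behaved differently in these mice and *Tbxas1* and *Alox5* rose in the same comparisons, the 250 bases upstream of their annotated starts are shown, taken from a RefSeq promoter table (GRCm38.p6) that held 7 of the 9 genes. The start of *Tbxas1* in that table lies inside the span that GENCODE M21 gives for the gene, downstream of its GENCODE start. Sequences run 5′ to 3′ on the strand of the gene, and capitals mark matches, on either strand, to a TATA box (TATAAA), the core of the cyclic AMP response element (CGTCA), an AP-1 site (TGANTCA), a GC box (GGGCGG), an E box (CACGTG) or the PU.1 core (GAGGAA).
*Ptgs2*, chr1:150099781-150100030, plus strand: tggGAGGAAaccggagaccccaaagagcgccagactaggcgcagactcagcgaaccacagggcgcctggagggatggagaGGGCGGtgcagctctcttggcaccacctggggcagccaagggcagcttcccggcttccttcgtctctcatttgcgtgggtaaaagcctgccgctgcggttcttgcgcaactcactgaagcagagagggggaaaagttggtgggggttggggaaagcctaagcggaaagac
*Ptgs2*, first 30 bases from the annotated start, chr1:150100031-150100060, plus strand: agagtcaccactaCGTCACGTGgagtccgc
*Ptgs1*, chr2:36230176-36230425, plus strand: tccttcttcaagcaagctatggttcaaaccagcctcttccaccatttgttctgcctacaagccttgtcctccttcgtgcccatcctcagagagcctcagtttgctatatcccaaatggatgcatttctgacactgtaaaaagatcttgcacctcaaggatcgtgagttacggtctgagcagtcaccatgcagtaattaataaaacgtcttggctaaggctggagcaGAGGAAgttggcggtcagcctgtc
*Tbxas1*, chr6:38918736-38918985, plus strand: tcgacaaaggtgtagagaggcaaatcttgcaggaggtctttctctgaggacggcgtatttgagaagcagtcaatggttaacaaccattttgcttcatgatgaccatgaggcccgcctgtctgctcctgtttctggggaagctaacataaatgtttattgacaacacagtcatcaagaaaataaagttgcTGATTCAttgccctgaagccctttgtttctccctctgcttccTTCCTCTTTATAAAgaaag
*Alox5*, chr6:116461179-116461428, minus strand: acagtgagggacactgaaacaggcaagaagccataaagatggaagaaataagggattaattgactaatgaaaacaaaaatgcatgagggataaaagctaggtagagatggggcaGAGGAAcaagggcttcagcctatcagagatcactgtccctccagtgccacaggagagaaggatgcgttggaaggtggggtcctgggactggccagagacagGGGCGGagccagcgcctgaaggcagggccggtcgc

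The window searched in each gene ran from 250 bases before to 50 bases after the start, 300 bases in all, where position 1 is the start and -1 the base before it. *Ptgs2* held the cyclic AMP element core at positions 14 to 18 and, overlapping it by the bases at 17 and 18, the E box at 17 to 22, and it was the only one of the 7 promoters with either motif. Of all 32851 promoters in the table, 20.8% held the first and 7.15% the second. *Ptgs2* also held a GC box at -170 to -165 and a PU.1 core at -247 to -242. *Ptgs1* held a PU.1 core at -24 to -19 and none of the other motifs in this window. *Tbxas1* was the only one of the 7 with a TATA box, on the plus strand at -11 to -6 and, overlapping it, on the minus strand at -13 to -8, and with an AP-1 site, at -61 to -55. These motifs occurred in 13.6% and 7.81% of all promoters. A PU.1 core lay at -19 to -14 on the minus strand of *Tbxas1* and at -136 to -131 of *Alox5*, and 6 of the 7 promoters held this motif, against 28.3% of all promoters. *Alox5* held a GC box at -35 to -30, a motif in 5 of the 7 and in 35.7% of all promoters. These matches are descriptions of sequence, and no binding was measured in this study.

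*Ptgis* stood far above the rest of the set in every group. Its mean FPKM was 779 ± 106 (SD, n = 5) in WT saline mice, 476 ± 98.5 (SD, n = 5) in WT Ang II mice, 879 ± 166 (SD, n = 5) in *Plod1-/-* saline mice and 255 ± 139 (SD, n = 5) in *Plod1-/-* Ang II mice. It ranked 45th, 83rd, 35th and 188th of the 43422 genes by mean FPKM in these groups, in that order. The other 8 genes had group means between 0.372 and 22.4 FPKM, and in every group the lowest *Ptgis* value lay above the highest value of any of them. In WT saline mice *Ptgis* was followed by *Ptgs2* (8.31 FPKM), *Ptgs1* (4.57), *Alox5ap* (2.53), *Ptgir* (2.28), *Ptges* (1.51), *Alox5* (1.28), *Ptger4* (0.838) and *Tbxas1* (0.372), all as means of 5 mice. The ranges of neighbours in this order overlapped for *Ptgs2* and *Ptgs1*, for *Alox5ap* and *Ptgir*, for *Ptges* and *Alox5*, and for *Ptger4* and *Tbxas1*. In *Plod1-/-* Ang II mice the order was *Ptgis*, *Alox5ap* (22.4 FPKM), *Ptgs2* (15.7), *Ptgs1* (6.76), *Alox5* (6.39), *Tbxas1* (5.15), *Ptges* (3.90), *Ptgir* (1.79) and *Ptger4* (1.05). There, all neighbours below *Ptgis* overlapped in range.

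**Figure D1:**
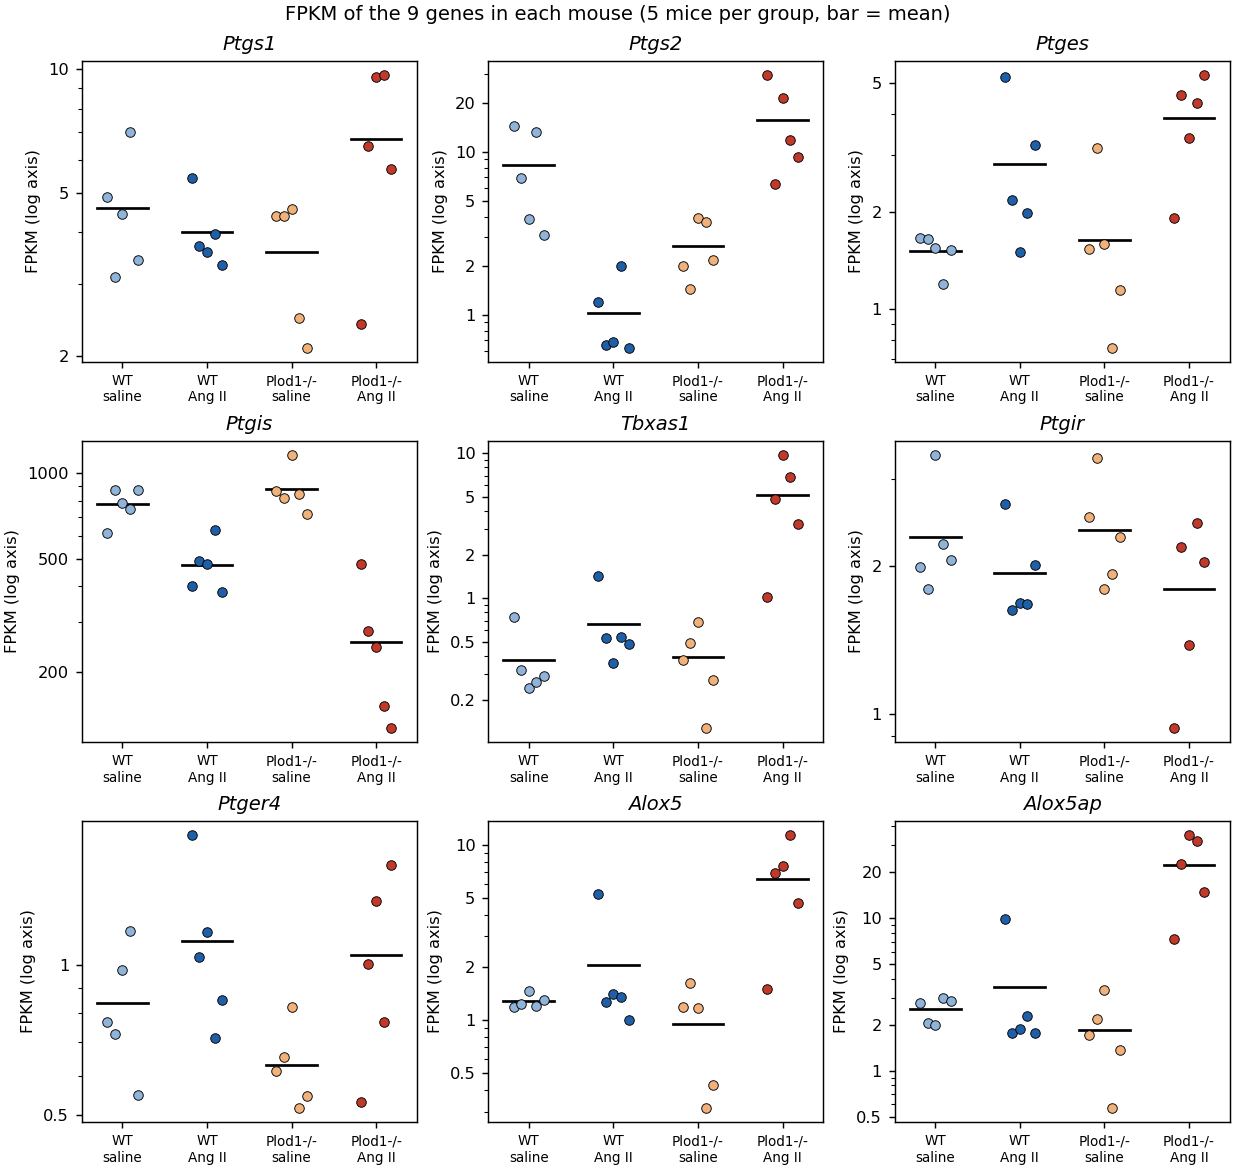
FPKM of each of the 9 genes on a log axis, with 1 point per mouse (5 mice per group) and a bar at the group mean. *Ptgs2* is lowest in WT Ang II mice (0.627 to 1.99 FPKM) and highest in *Plod1-/-* Ang II mice (6.35 to 29.7 FPKM), while *Ptgis* is lowest in the latter (127 to 478 FPKM).

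To see whether Ang II changed these genes in WT mice, the 10 WT mice were compared. *Ptgs2* fell, and no other gene of the set passed both thresholds for a differentially expressed gene (DEG), which were an adjusted p-value under 0.05 together with a change of more than 1 in either direction in log2(FPKM + 1). The test was limma with Benjamini-Hochberg adjustment over all genes tested. Of the 9 genes, 7 were abundant enough to be tested in this comparison (5 or more of the 10 mice at 1 FPKM or above), and 1 was a DEG. Across all 11994 genes tested, 8.66% were DEGs. The log2 fold change had a median of -0.14 over all genes and of -0.13 over the 7 genes. It is taken on the log2(FPKM + 1) scale throughout, which understates the change of genes near 1 FPKM.

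In *Plod1-/-* Ang II mice against their saline-treated controls, 8 genes were tested and 5 were DEGs, of which *Ptgs2*, *Tbxas1*, *Alox5* and *Alox5ap* rose and *Ptgis* fell. Across all 12333 genes tested, 13.9% were DEGs. The median log2 fold change was 0.05 over all genes and 1.35 over the 8 genes, 6 of which had a positive value. *Tbxas1* passed the filter on low values only through the Ang II-treated mice, since it was below 1 FPKM in all 5 *Plod1-/-* saline mice. It had to differ once it was tested, and without it 4 of 7 genes were DEGs and their median was 0.91.

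Under saline, 7 genes were tested between *Plod1-/-* and WT mice and 0 were DEGs, while 0.767% of all 11999 genes tested were. With the adjusted p-value alone, 0 of the 7 genes passed, beside 6.55% of all genes tested. No test other than limma was run across genes. Under Ang II, all 9 genes were tested, and 5 were DEGs, with *Ptgs2*, *Alox5ap*, *Tbxas1* and *Alox5* higher and *Ptgis* lower in *Plod1-/-* mice, beside 11.1% of all 12356 genes tested. Of the WT Ang II mice only mouse 1 (1.43 FPKM) reached 1 FPKM for *Tbxas1*. This gene entered the test mainly through the *Plod1-/-* mice, which limits the count of 5. The median log2 fold change was 0.12 over all genes and 0.54 over the 9 genes. Ang II-treated groups take part in more than one of these comparisons, so the comparisons share mice and are not independent.

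The response to Ang II itself was compared between the genotypes in a fit of all 20 mice. The difference between the responses (response in *Plod1-/-* minus response in WT, on the log2 scale) passed both thresholds for 5 of the 9 genes, beside 16.1% of all 13263 genes tested. It was positive for *Ptgs2*, *Alox5ap*, *Tbxas1* and *Alox5* and negative for *Ptgis*. Outside the *Plod1-/-* Ang II group only WT Ang II mouse 1 reached 1 FPKM for *Tbxas1* (1.43 FPKM). This gene thus entered the fit mainly through the *Plod1-/-* Ang II mice, which limits the count of 5. Without the 2 libraries with *Xist* RNA the same 5 genes passed, at 3.79 for *Ptgs2*, 3.11 for *Alox5ap*, 2.01 for *Tbxas1*, 1.76 for *Alox5* and -1.53 for *Ptgis*.

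**Figure D2:**
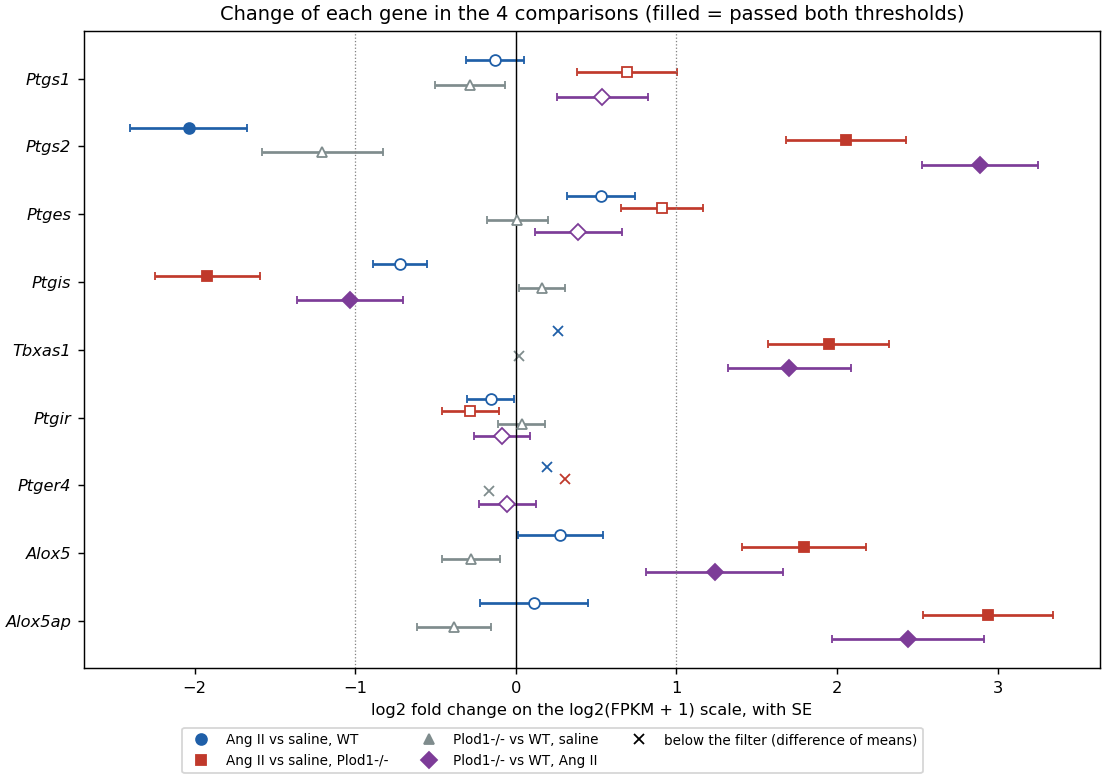
Log2 fold change with its standard error for each gene in the 4 comparisons of 10 mice each, with filled symbols for DEGs and crosses for genes below the filter on low values. *Ptgs2* lies at -2.04 for Ang II in WT and at 2.06 for Ang II in *Plod1-/-* mice, and *Alox5ap* lies furthest to the right, at 2.94.

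Of the cyclooxygenases, *Ptgs2* responded to Ang II in opposite directions in the genotypes. *Ptgs2* (ENSMUSG00000032487) is a protein-coding gene at chr1:150100031-150108227 (GRCm38), on the plus strand. Its FPKM was 14.5, 6.95, 3.86, 13.2 and 3.08 in WT saline mice 1 to 5 and 1.21, 0.651, 0.679, 1.99 and 0.627 in WT Ang II mice 1 to 5. No Ang II value reached the lowest saline value. The mean fell from 8.31 ± 5.26 to 1.03 ± 0.589 FPKM (SD, n = 5 each), a log2 fold change of -2.04 (SE 0.36, adjusted p = 0.00303 by limma). *Plod1-/-* saline mice had 1.98, 1.44, 3.93, 3.70 and 2.16 FPKM, and *Plod1-/-* Ang II mice had 29.7, 6.35, 21.4, 11.8 and 9.28 FPKM. Here every Ang II-treated mouse was above every saline-treated one. The mean rose from 2.64 ± 1.11 to 15.7 ± 9.64 FPKM (SD, n = 5 each), a log2 fold change of 2.06 (SE 0.37, adjusted p = 0.00147 by limma).

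Between the Ang II-treated genotypes, the *Ptgs2* mean was 15.2 times as high in *Plod1-/-* as in WT mice, with no overlap (log2 fold change 2.89, SE 0.36, adjusted p = 0.00109 by limma). The difference between the responses was 4.09 (SE 0.55, adjusted p = 6.1e-05 by limma). Under saline the *Ptgs2* mean was lower in *Plod1-/-* mice, but the groups overlapped and the difference did not pass the adjusted threshold (log2 fold change -1.20, SE 0.38, adjusted p = 0.0759 by limma). Without WT saline mouse 5, the lowest of its group, this difference was -1.45 with an adjusted p of 0.0429 by limma.

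The group levels of *Ptgs2* moved with those of the immediate early genes, which respond within minutes to stimuli, tissue handling among them. The summed FPKM of 10 such genes (*Fos*, *Egr1* and others) was 562 to 2799 in WT saline, 137 to 250 in WT Ang II, 250 to 1416 in *Plod1-/-* saline and 626 to 1632 in *Plod1-/-* Ang II mice. In the limma fits, 8 of the 10 fell under Ang II in WT mice, 3 rose under Ang II in *Plod1-/-* mice, and 9 were higher in *Plod1-/-* Ang II than in WT Ang II mice. Of all genes tested, 8.66%, 13.9% and 11.1% were DEGs in these comparisons, in that order. Within groups the order differed, as *Plod1-/-* Ang II mouse 1 had the highest *Ptgs2* (29.7 FPKM) and the lowest sum (626 FPKM) of its group. The median sum was lower in *Plod1-/-* Ang II (928 FPKM) than in WT saline mice (1200 FPKM), whereas the *Ptgs2* median was higher (11.8 against 6.95 FPKM). No gene of this list was at 0 in a mouse. The part of tissue handling or of this early response in the *Ptgs2* values was not tested.

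*Ptgs1* (ENSMUSG00000047250, chr2:36230426-36252272, plus strand, GRCm38), the constitutive cyclooxygenase, passed in no comparison. Its FPKM ran from 3.11 to 7.01 (median 4.44) in WT saline, from 3.32 to 5.41 (median 3.70) in WT Ang II, from 2.09 to 4.56 (median 4.38) in *Plod1-/-* saline and from 2.40 to 9.67 (median 6.47) in *Plod1-/-* Ang II mice. The groups overlapped in all 4 comparisons. The largest of the 4 differences was that under Ang II in *Plod1-/-* mice, with a log2 fold change of 0.69 (SE 0.31, adjusted p = 0.0963 by limma). It was lowered by *Plod1-/-* Ang II mouse 1, which had the lowest *Ptgs1* value (2.40 FPKM) and the highest *Ptgs2* value of its group. Without this mouse the log2 fold change was 0.96 and the adjusted p 0.00545 by limma, still short of the fold threshold, and the difference between the responses became 1.09 with an adjusted p of 0.00738.

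The ratio of *Ptgs2* to *Ptgs1* within a mouse gives the balance of the inducible and the constitutive transcript on the FPKM scale. It was 2.97, 2.23, 0.870, 1.88 and 0.898 in WT saline mice and 0.223, 0.176, 0.190, 0.502 and 0.189 in WT Ang II mice. Knockout mice had 0.453, 0.328, 0.863, 1.49 and 1.03 under saline and 12.4, 0.981, 2.23, 1.22 and 1.63 under Ang II. *Ptgs1* thus exceeded *Ptgs2* in all 5 WT Ang II mice, and *Ptgs2* exceeded *Ptgs1* in 4 of the 5 *Plod1-/-* Ang II mice.

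**Figure D3:**
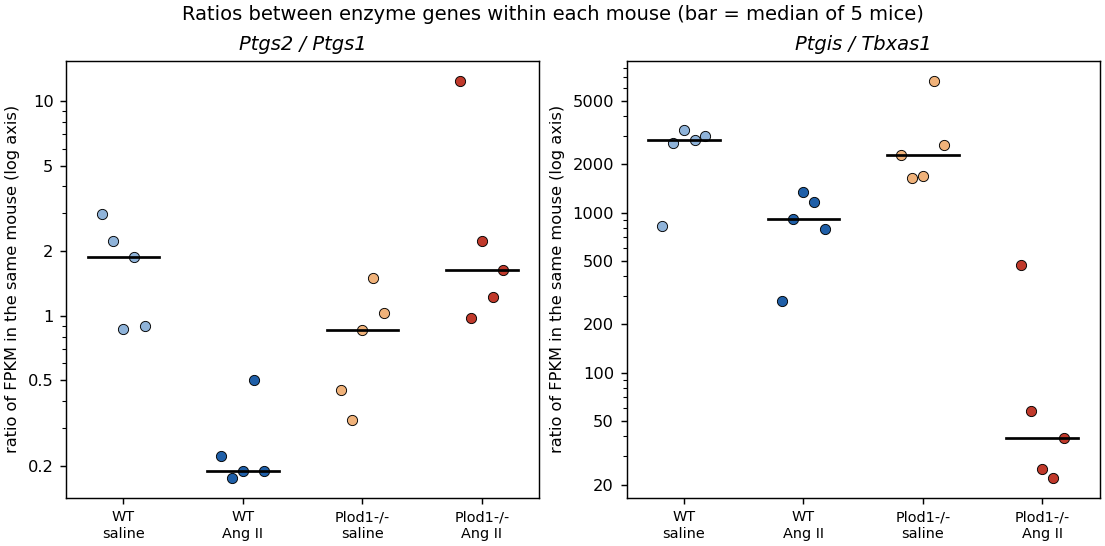
Ratio of *Ptgs2* to *Ptgs1* and of *Ptgis* to *Tbxas1* within each mouse on log axes, with 1 point per mouse and a bar at the median of 5 mice. The median of the first ratio is 0.190 in WT Ang II and 1.63 in *Plod1-/-* Ang II mice, and the median of the second is 917 and 39.2 in the same groups.

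Of the terminal synthases, *Ptgis* fell and *Tbxas1* rose in *Plod1-/-* Ang II mice. *Ptgis* (ENSMUSG00000017969, chr2:167191805-167240604, minus strand, GRCm38) had 617, 874, 784, 749.6 and 872 FPKM in WT saline mice 1 to 5 and 400.1, 490.0, 479.7, 630.2 and 381 FPKM in WT Ang II mice 1 to 5. Of the WT Ang II mice, 4 were below every WT saline mouse and mouse 4 lay within their range. The log2 fold change was -0.72 (SE 0.17, adjusted p = 0.00930 by limma), below the adjusted threshold but short of the fold threshold. *Plod1-/-* saline mice had 861, 814, 1158, 844 and 717 FPKM, and *Plod1-/-* Ang II mice had 478, 278, 243, 151 and 127 FPKM, with no overlap. The mean of these mice was 3.44 times as high under saline as under Ang II, with a log2 fold change of -1.92 (SE 0.33, adjusted p = 0.00101 by limma).

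The difference of *Ptgis* between the Ang II-treated genotypes was -1.03 (SE 0.33, adjusted p = 0.0362 by limma), and the groups overlapped because *Plod1-/-* mouse 1 (478 FPKM) lay among the WT mice. This call depended on the set of mice. It was lost when any 1 of 7 of the 10 mice was left out, namely WT mice 2 to 5 and *Plod1-/-* mice 3 to 5, with adjusted p-values of 0.0542 to 0.0939 by limma. It held without WT mouse 1 (-1.09), without *Plod1-/-* mouse 1 (-1.30) and without *Plod1-/-* mouse 2 (-1.10). The difference between the responses was -1.20 (SE 0.37, adjusted p = 0.0176 by limma), and it was -0.99, short of the fold threshold, without *Plod1-/-* Ang II mouse 5.

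Smooth muscle markers moved with *Ptgis* across the groups. The summed FPKM of 12 smooth muscle markers (*Acta2*, *Myh11* and others) was 19370 to 27722 in WT saline, 7899 to 23215 in WT Ang II, 20782 to 28998 in *Plod1-/-* saline and 3315 to 21672 in *Plod1-/-* Ang II mice. The highest of the WT Ang II mice was mouse 4 and the highest of the *Plod1-/-* Ang II mice was mouse 1, which also had the highest *Ptgis* of their groups. By limma, 3 of the 12 markers fell under Ang II in WT mice and 10 in *Plod1-/-* mice, and 2 were lower in *Plod1-/-* than in WT mice under Ang II. Of all genes tested, 8.66%, 13.9% and 11.1% were DEGs in these comparisons, in that order. None of the 12 was at 0 in a mouse. The part of a changed share of smooth muscle cells in the *Ptgis* values was not tested. In bulk tissue, fewer cells of a type and less RNA per cell cannot be told apart. *Ptgis* shares exon sequence with *1110018N20Rik* on the opposite strand, which was at most 0.644 FPKM. Without the libraries with *Xist* RNA the log2 fold change of *Ptgis* in *Plod1-/-* mice was -2.26. Endothelial cells and fibroblasts also make prostacyclin. Of 10 endothelial markers tested 4 rose and 0 fell under Ang II in WT mice (median log2 fold change 0.18, 5 of 10 positive), and 3 rose and 0 fell in *Plod1-/-* mice (median 0.42, 7 of 10 positive). Of 8 fibroblast markers tested none was a DEG in WT mice, where all 8 had a negative value (median -0.52) and 3 passed the adjusted threshold alone, and 1 rose in *Plod1-/-* mice (median 0.08). Under Ang II, 1 fibroblast marker was higher and 2 were lower in *Plod1-/-* than in WT mice. None of the 10 endothelial markers was a DEG there, and their median log2 fold change was -0.37, with 1 of 10 positive. The part of these cells was not tested.

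*Tbxas1* (ENSMUSG00000029925, chr6:38875404-39084585, plus strand, GRCm38) was near the lower end of the data outside *Plod1-/-* Ang II mice. Its FPKM was 0.745, 0.321, 0.239, 0.266 and 0.289 in WT saline and 1.43, 0.534, 0.359, 0.540 and 0.485 in WT Ang II mice. It was below the filter in this comparison, and the two-sided exact permutation test gave p = 0.151 for a difference of 0.26 in mean log2(FPKM + 1), where the smallest p that 5 mice against 5 allow is 0.00794. In *Plod1-/-* saline mice it was 0.374, 0.492, 0.687, 0.127 and 0.271 FPKM, and in *Plod1-/-* Ang II mice 1.02, 4.85, 9.76, 6.87 and 3.23 FPKM. Every *Plod1-/-* Ang II mouse was above every saline-treated mouse of either genotype. The mean rose from 0.390 ± 0.213 to 5.15 ± 3.36 FPKM (SD, n = 5 each), and the exact permutation test, which needs no filter, gave the smallest p that 5 mice against 5 allow, 0.00794. With no filter on low values the log2 fold change was 1.95 (SE 0.38, adjusted p = 0.00732 by limma).

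Between the Ang II-treated genotypes the log2 fold change of *Tbxas1* was 1.70 (SE 0.38, adjusted p = 0.00943 by limma and 0.0316 with no filter), and it was 2.05 without *Plod1-/-* mouse 1, whose value lay below that of WT mouse 1. The difference between the responses was 1.69 (SE 0.43, adjusted p = 0.00574 by limma). Under saline the genotypes differed by 0.02 in mean log2(FPKM + 1) (exact permutation test, p = 0.905).

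The ratio of *Ptgis* to *Tbxas1* within a mouse was 828 to 3280 (median 2820) in WT saline, 281 to 1337 (median 917) in WT Ang II and 1653 to 6635 (median 2301) in *Plod1-/-* saline mice. In *Plod1-/-* Ang II mice it was 467 in mouse 1 and 57.3, 24.9, 22.0 and 39.2 in mice 2 to 5. The prostacyclin synthase transcript exceeded the thromboxane synthase transcript in all 20 mice, and only mice 2 to 5 of the *Plod1-/-* Ang II group had a ratio below 281.

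*Ptges* (ENSMUSG00000050737, chr2:30889471-30929863, minus strand, GRCm38) was a DEG in no comparison. Its FPKM ran from 1.19 to 1.66 (median 1.55) in WT saline, from 1.504 to 5.21 (median 2.17) in WT Ang II, from 0.758 to 3.13 (median 1.54) in *Plod1-/-* saline and from 1.91 to 5.30 (median 4.32) in *Plod1-/-* Ang II mice. In *Plod1-/-* mice the difference under Ang II passed the adjusted threshold but not the fold threshold, with a log2 fold change of 0.91 (SE 0.25, adjusted p = 0.0148 by limma), and 4 of the 5 Ang II-treated mice were above every saline-treated one. Without *Plod1-/-* Ang II mouse 1 it passed both (log2 fold change 1.08, adjusted p = 0.00265), as it did without *Plod1-/-* saline mouse 2 (1.09, adjusted p = 0.00473). In WT mice the log2 fold change was 0.53 (SE 0.21, adjusted p = 0.0663 by limma), and the difference between the responses, 0.38 (SE 0.35, adjusted p = 0.403 by limma), did not pass.

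The receptor transcripts were DEGs in no comparison in which they were tested. *Ptgir* (ENSMUSG00000043017, chr7:16906490-16910905, plus strand, GRCm38) ran from 1.80 to 3.36 FPKM in WT saline, 1.63 to 2.67 in WT Ang II, 1.79 to 3.31 in *Plod1-/-* saline and 0.934 to 2.44 in *Plod1-/-* Ang II mice. Its log2 fold changes lay between -0.28 and 0.04, with standard errors of 0.14 to 0.18. The largest of these, -0.28 (SE 0.18, adjusted p = 0.221 by limma), was that for Ang II in *Plod1-/-* mice, where *Ptgis* fell.

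*Ptger4* (ENSMUSG00000039942, chr15:5206661-5244187, minus strand, GRCm38) ran from 0.548 to 1.17 FPKM in WT saline, 0.713 to 1.82 in WT Ang II, 0.517 to 0.825 in *Plod1-/-* saline and 0.532 to 1.58 in *Plod1-/-* Ang II mice. It was below the filter in 3 of the 4 comparisons. There the exact permutation tests gave p = 0.254 for Ang II in WT, 0.0794 for Ang II in *Plod1-/-* and 0.119 for the genotypes under saline. Between the Ang II-treated genotypes the log2 fold change was -0.05 (SE 0.18, adjusted p = 0.837 by limma). Its exons overlap those of *Ttc33* on the opposite strand, which reached 10.9 FPKM, and the libraries are not stated to mark the strand, so its values are uncertain.

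In the leukotriene branch, both *Alox5ap* and *Alox5* rose in *Plod1-/-* Ang II mice. *Alox5ap* (ENSMUSG00000060063, chr5:149264767-149288153, plus strand, GRCm38) had 2.76, 2.06, 1.999, 2.99 and 2.87 FPKM in WT saline and 9.86, 1.77, 1.87, 2.28 and 1.77 FPKM in WT Ang II mice. Mouse 1 of the latter group was above all WT saline mice and the other 4 were at 2.28 FPKM or below. The log2 fold change was 0.11 (SE 0.34, adjusted p = 0.7996 by limma), and it was -0.27 (adjusted p = 0.113) without mouse 1. *Plod1-/-* saline mice had 1.70, 2.18, 3.38, 0.568 and 1.36 FPKM, and *Plod1-/-* Ang II mice had 7.28, 22.8, 35.2, 31.9 and 14.9 FPKM, with no overlap. The mean was 12.2 times as high under Ang II, with a log2 fold change of 2.94 (SE 0.41, adjusted p = 0.000325 by limma).

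*Alox5ap* differed between the Ang II-treated genotypes by 2.44 (SE 0.47, adjusted p = 0.00538 by limma). The groups overlapped because WT mouse 1 (9.86 FPKM) lay above *Plod1-/-* mouse 1 (7.28 FPKM). Without WT mouse 1 the log2 fold change was 2.82 and without *Plod1-/-* mouse 1 it was 2.77. The difference between the responses was 2.83 (SE 0.56, adjusted p = 0.00103 by limma).

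*Alox5* (ENSMUSG00000025701, chr6:116410077-116461178, minus strand, GRCm38) had 1.18, 1.24, 1.47, 1.20 and 1.31 FPKM in WT saline and 5.26, 1.27, 1.41, 1.35 and 1.01 FPKM in WT Ang II mice, so that mouse 1 was again apart. In *Plod1-/-* saline mice it was 1.19, 1.64, 1.18, 0.316 and 0.426 FPKM, and in *Plod1-/-* Ang II mice 1.51, 6.92, 7.53, 11.4 and 4.65 FPKM. All *Plod1-/-* Ang II mice but mouse 1 were above every saline-treated mouse. The log2 fold change in *Plod1-/-* mice was 1.79 (SE 0.38, adjusted p = 0.00370 by limma), and the difference between the responses was 1.52 (SE 0.49, adjusted p = 0.0214 by limma).

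Between the Ang II-treated genotypes *Alox5* passed narrowly, with a log2 fold change of 1.24 (SE 0.43, adjusted p = 0.0473 by limma). It was lost when any 1 of 8 of the 10 mice was left out, namely WT mice 2 to 5 and *Plod1-/-* mice 2 to 5, with adjusted p-values of 0.0714 to 0.113 by limma. It held without WT mouse 1 (log2 fold change 1.53, adjusted p = 0.0146) and without *Plod1-/-* mouse 1 (1.58, adjusted p = 0.00645). The ratio of *Alox5ap* to *Alox5* within a mouse was 1.36 to 2.48 in WT saline, 1.32 to 1.88 in WT Ang II, 1.33 to 3.19 in *Plod1-/-* saline and 2.80 to 4.83 in *Plod1-/-* Ang II mice.

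Markers of leukocytes and platelets moved with *Alox5ap*, *Alox5* and *Tbxas1*. The summed FPKM of 12 macrophage markers (*Cd68*, *Adgre1*, *Csf1r* and others) was 228 to 394 in WT saline, 327 to 1887 in WT Ang II, 119 to 433 in *Plod1-/-* saline and 992 to 5081 in *Plod1-/-* Ang II mice. All 12 rose under Ang II in *Plod1-/-* mice, 1 of 11 tested did in WT mice, and 11 of 12 were higher in *Plod1-/-* than in WT mice under Ang II. Of all genes tested, 13.9%, 8.66% and 11.1% were DEGs in these comparisons, in that order. No macrophage marker was at 0 in a mouse. The lowest of the *Plod1-/-* Ang II mice in this sum was mouse 1 and the highest was mouse 3, which were also the lowest and the highest of that group for *Alox5ap* and *Tbxas1*.

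The 10 neutrophil markers summed to 3.58 to 60.2 FPKM in WT saline, 7.08 to 201 in WT Ang II, 1.47 to 3.24 in *Plod1-/-* saline and 158 to 727 in *Plod1-/-* Ang II mice. Of these markers, *Ly6g* was at 0 in 4, 3 and 4 mice of the first 3 groups and in 0 mice of the last, and its highest values in the 4 groups were 0.707, 0.391, 0.0357 and 0.280 FPKM. The 10 platelet and megakaryocyte markers summed to 32.8 to 80.0 FPKM in WT saline, 25.4 to 101 in WT Ang II, 12.7 to 32.3 in *Plod1-/-* saline and 155 to 1004 in *Plod1-/-* Ang II mice. Of the 10 neutrophil markers 5 were tested and 5 rose under Ang II in *Plod1-/-* mice, and of the 10 platelet markers 6 were tested and 5 rose, beside 13.9% of all genes. *Csf3r*, *Cxcr2* and *Retnlg* were below 1 FPKM in all 5 *Plod1-/-* saline mice and entered the test only through the Ang II mice. They had to differ once they were tested. Between the saline-treated genotypes, 2 of the 10 neutrophil and 3 of the 10 platelet markers were abundant enough to be tested. *Pf4*, a chemokine of platelet granules, made up most of the last sum, at 115 to 829 FPKM in *Plod1-/-* Ang II mice, whereas *Gp9*, a subunit of a platelet receptor, ran from 0.533 to 22.6 FPKM. The part of these cells in the rise of the 3 genes was not tested. Markers of mast cells, another source of 5-lipoxygenase products, summed to 16.0 to 39.1, 23.2 to 41.0, 23.9 to 90.9 and 25.5 to 72.7 FPKM in the 4 groups in the same order. Of these markers 1 of 7 tested rose under Ang II in *Plod1-/-* mice, near the 13.9% of all genes.

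**Figure D4:**
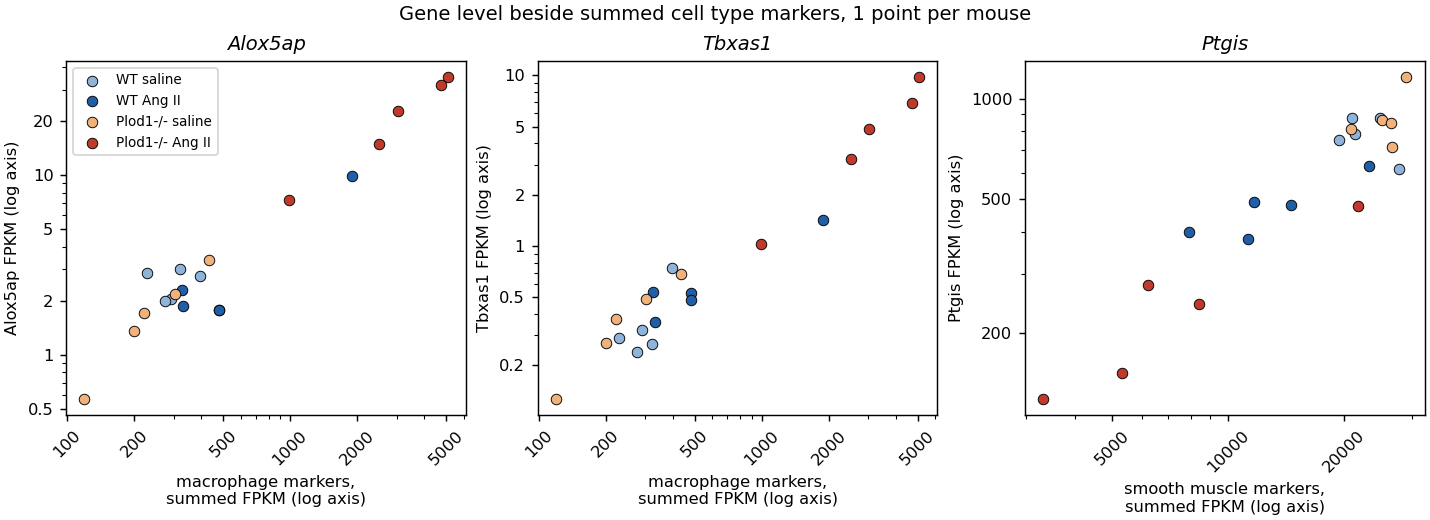
FPKM of *Alox5ap* and *Tbxas1* against the summed FPKM of 12 macrophage markers, and of *Ptgis* against that of 12 smooth muscle markers, all on log axes with 1 point per mouse. *Plod1-/-* Ang II mouse 1 (992 FPKM of macrophage markers) and WT Ang II mouse 1 (1887 FPKM) lie between the other *Plod1-/-* Ang II mice and the remaining 14 mice in the macrophage panels.

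The genes nearest to each of the 9 over the 20 mice were found by the mean absolute difference of standardized log2(FPKM + 1) values, where the median over 13263 genes lay between 1.03 and 1.16 SD. *Tbxas1* was nearest to *Rasgrp4* (0.109 SD), *Parvg* (0.113) and *Ly9* (0.122), *Alox5ap* to *Itgb2* (0.132), *Fermt3* (0.133) and *Cotl1* (0.136), and *Alox5* to *Slc7a8* (0.140), *F13a1* (0.155) and *Itgb2* (0.183). *Ptgis* was nearest to *Sgca* (0.170 SD), *Unc45a* (0.171) and *Rras* (0.176). *Ptgs2* was nearest to *Tubb6* (0.232 SD), *Tuba1c* (0.242) and *Golt1b* (0.252), and *Ptges* to *Steap4* (0.262), *Ggt5* (0.293) and *Ttyh2* (0.297). The remaining genes lay further from their nearest genes, with *Ptgs1* closest to *Cd24a* (0.374 SD), *Kctd12* (0.395) and *Emilin2* (0.396), *Ptger4* to *Plvap* (0.404), *B3gnt3* (0.426) and *Susd1* (0.433), and *Ptgir* to *Vsig10* (0.412), *Zfyve27* (0.462) and *Gm20544* (0.482). Within the set, the closest pair was *Tbxas1* and *Alox5ap* (0.211 SD), followed by *Alox5* and *Alox5ap* (0.244). These distances describe the same 20 libraries and carry no test.

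The rest of the pathway was followed with 60 further genes grouped by role. Under Ang II in WT mice 26 of the 60 were tested, 5 rose and 1 fell, beside 8.66% of all genes, with a median log2 fold change of 0.53 against -0.14 over all genes. The knockout comparison tested 30, of which 7 rose and 1 fell, beside 13.9% of all genes, with a median of 0.18 against 0.05. Between the genotypes 1 of 25 tested passed under saline, beside 0.767% of all genes (median 0.22 against -0.01). Under Ang II 5 of 31 were higher and 1 lower in *Plod1-/-* mice, beside 11.1% of all genes (median 0.22 against 0.12). The difference between the responses was positive past both thresholds for 5 and negative for 7 of 34 tested, beside 16.1% of all genes (median -0.10 against 0.12). By role, under Ang II in WT mice 2 rose (*Mgll* and *Pla2g7*) and 1 fell of 7 tested in the list of phospholipases and other release of arachidonic acid, 2 of 5 other prostanoid synthases rose and 1 of 6 genes of prostanoid uptake and breakdown rose. In *Plod1-/-* mice 1 of 7 (*Pla2g7*), 1 of 5 and 0 of 6 of these rose. Of the 6 other lipoxygenases 1 was tested, and it passed in no comparison.

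Of the genes for release of arachidonic acid, *Pla2g4a*, the cytosolic phospholipase that feeds both branches, fell under Ang II in WT mice from 12.0 ± 2.82 to 4.97 ± 2.99 FPKM (SD, n = 5 each; log2 fold change -1.23, adjusted p = 0.00883 by limma). In *Plod1-/-* mice it had 8.69 ± 1.15 FPKM under saline and 6.53 ± 1.32 FPKM under Ang II, and the log2 fold change of -0.37 (adjusted p = 0.0489 by limma) was short of the fold threshold. *Mgll*, monoacylglycerol lipase, which releases arachidonic acid from an endocannabinoid, rose in WT mice from 27.5 ± 3.41 to 95.6 ± 32.7 FPKM (log2 fold change 1.68, adjusted p = 0.00188). Without *Plod1*, *Mgll* had 40.7 ± 12.7 and 35.2 ± 7.58 FPKM, and it was lower in *Plod1-/-* than in WT mice under Ang II (-1.35, adjusted p = 0.00689). *Mgll* is abundant in fat, and the summed FPKM of 12 adipocyte markers was 145 to 951 in WT saline, 1795 to 8883 in WT Ang II, 274 to 2758 in *Plod1-/-* saline and 1042 to 7651 in *Plod1-/-* Ang II mice. All 11 adipocyte markers tested rose in WT mice, beside 8.66% of all genes, and 4 of 12 tested did in *Plod1-/-* mice, beside 13.9%. The part of attached fat was not tested. *Pla2g7*, a secreted enzyme that degrades platelet-activating factor and does not release arachidonic acid, rose in both genotypes, from 2.29 ± 0.826 to 13.2 ± 8.46 FPKM in WT (1.95, adjusted p = 0.00350) and from 3.04 ± 1.68 to 38.4 ± 19.5 FPKM in *Plod1-/-* mice (3.14, adjusted p = 0.000776). Between the Ang II-treated genotypes it did not pass (1.42, adjusted p = 0.0682), but it did without *Plod1-/-* mouse 1 (1.90, adjusted p = 0.00544) or WT mouse 1 (1.71, adjusted p = 0.0346). The difference between its responses did not pass both thresholds. It did without *Plod1-/-* Ang II mouse 1 (1.67, adjusted p = 0.0154 by limma) or without the libraries with *Xist* RNA (1.64, adjusted p = 0.0246 by limma).

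Among the other prostanoid synthases and the enzymes of breakdown, *Ptges2* (a further prostaglandin E synthase), *Cbr1* (a carbonyl reductase that acts on prostaglandin E) and *Ptgr2* (a reductase of inactivated prostaglandins) rose under Ang II in WT mice. Their log2 fold changes were 1.26 for *Ptges2* (adjusted p = 0.00353), 1.20 for *Cbr1* (adjusted p = 0.00188) and 1.27 for *Ptgr2* (adjusted p = 0.00210), all by limma, with no overlap between the groups. In *Plod1-/-* mice these genes did not pass, and the difference between the responses was negative for *Ptges2* (-1.10), *Cbr1* (-1.06) and *Ptgr2* (-1.07). The adipocyte markers given above moved in the same direction, with 6 of 12 negative past both thresholds in the difference between the responses, beside 16.1% of all genes in either direction. WT Ang II mouse 4, lowest of its group in the adipocyte sum (1795 FPKM), was also lowest for *Ptges2* (5.59), *Cbr1* (40.04), *Ptgr2* (3.77) and *Ptgds* (0.909 FPKM). *Plod1-/-* Ang II mouse 1, lowest of its group in that sum (1042 FPKM), was lowest for *Ptges2* (4.36), *Cbr1* (24.7) and *Ptgr2* (1.48 FPKM). It was highest for *Ptgds* (9.07 FPKM), whereas mouse 2, with the highest sum (7651 FPKM), had 0.265 FPKM of *Ptgds*. The part of fat in these genes was not tested. The differences for *Ptges2*, *Cbr1* and *Ptgr2* were near the fold threshold. They fell short of it in 3, 3 and 6 of the 20 fits that each left out 1 mouse, among them for *Cbr1* and *Ptgr2* the fit without *Plod1-/-* Ang II mouse 1 (-0.92 and -0.88). With no filter on low values the *Ptgr2* difference did not pass (adjusted p = 0.0604 by limma). *Fam213b*, which encodes a prostaglandin F synthase, rose in *Plod1-/-* mice from 9.18 ± 1.03 to 21.8 ± 6.73 FPKM (1.11, adjusted p = 0.00148, and 0.98 without Ang II-treated mouse 3). *Ptgr1*, which inactivates prostaglandins and leukotriene B, was higher in *Plod1-/-* than in WT mice under Ang II, at 16.5 ± 8.17 against 5.93 ± 1.83 FPKM (1.24, adjusted p = 0.0134). For Ang II in *Plod1-/-* mice it was just short of the fold threshold (0.995, adjusted p = 0.0145 by limma). It passed both in 4 of the 10 fits that left out 1 mouse and without the libraries with *Xist* RNA (1.23, adjusted p = 0.00532 by limma). *Ptgds*, which encodes a prostaglandin D synthase, had a difference between the responses of -1.96 (adjusted p = 0.0454 by limma). It was lost when any 1 of 15 of the 20 mice was left out, but not without *Plod1-/-* Ang II mouse 1, the highest of its group, when it was -2.57 (adjusted p = 0.00107). With no filter on low values it was lost as well (adjusted p = 0.111 by limma). The median of *Ptgds* was 0.338 and 6.38 FPKM in WT saline and WT Ang II mice and 0.702 and 0.265 FPKM in *Plod1-/-* saline and *Plod1-/-* Ang II mice. *Hpgds*, another prostaglandin D synthase of the list, was below the filter and was not tested. Its mean was 0.162 and 0.413 FPKM in WT saline and WT Ang II mice. In *Plod1-/-* saline and *Plod1-/-* Ang II mice it was 0.170 and 2.73 FPKM, the other way from *Ptgds*.

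Of the other receptors, the thromboxane receptor *Tbxa2r* was the one gene of the pathway list that differed between the genotypes under saline. It had 9.57 ± 0.702 FPKM in WT saline and 21.3 ± 4.71 FPKM in *Plod1-/-* saline mice (SD, n = 5 each), with no overlap (log2 fold change 1.05, SE 0.14, adjusted p = 0.00506 by limma). Without *Plod1-/-* saline mouse 3 or mouse 4 it no longer passed both thresholds. Under Ang II it fell in *Plod1-/-* mice to 6.99 ± 2.09 FPKM (-1.497, SE 0.21, adjusted p = 0.000344), while WT mice had 11.5 ± 2.85 FPKM, and the difference between the responses was -1.71 (SE 0.26, adjusted p = 0.000152). Under Ang II in *Plod1-/-* mice 10 of the 12 smooth muscle markers fell as well, beside 13.9% of all genes. *Plod1-/-* Ang II mouse 1, highest of its group in the smooth muscle sum, was also highest in *Tbxa2r* (9.70 FPKM). Elsewhere the markers and *Tbxa2r* did not move together. Between the saline-treated genotypes none of the 12 markers was a DEG (median log2 fold change 0.17). In WT mice the median marker sum was 21289 FPKM under saline and 11665 FPKM under Ang II, while *Tbxa2r* did not fall. WT Ang II mouse 4, highest of its group in that sum (23215 FPKM), had 11.2 FPKM of *Tbxa2r*, against 15.9 FPKM in mouse 2. The part of smooth muscle cells in the *Tbxa2r* values was not tested. *Ptger3*, another prostaglandin E receptor, had a difference between the responses of -1.16 (adjusted p = 0.0289) that was lost in 4 of the 20 fits without 1 mouse and without the libraries with *Xist* RNA (-1.10, adjusted p = 0.0543), with medians of 0.481 and 2.38 FPKM in WT saline and WT Ang II mice and 1.09 and 0.899 FPKM in *Plod1-/-* saline and *Plod1-/-* Ang II mice.

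Some other genes of the leukotriene branch rose in *Plod1-/-* Ang II mice. Of the 10 genes of leukotriene synthesis and breakdown 7 were tested there, 5 had a positive value and 4 rose as DEGs, beside 13.9% of all genes. The DEGs were *Cotl1*, *Cyp4f18*, *Ggt5* and *Ltc4s*. Of these only *Cotl1* was above 1 FPKM in all 5 *Plod1-/-* saline mice. Among the saline mice only mouse 3 reached 1 FPKM for *Cyp4f18* (1.05 FPKM) and only mouse 2 for *Ggt5* (1.07 FPKM). Both genes thus entered the test mainly through the Ang II mice, as *Ltc4s* did, which limits the count of 4. *Dpep1*, of the same list, had a lower mean under Ang II (43.1 ± 25.6 FPKM) than under saline (71.9 ± 36.1 FPKM) and was not a DEG. *Cotl1*, a protein that binds actin and 5-lipoxygenase and is abundant in leukocytes, rose from 7.70 ± 3.70 to 137 ± 83.2 FPKM (log2 fold change 3.81, adjusted p = 0.00024 by limma). *Cyp4f18*, which degrades leukotriene B in neutrophils, rose from 0.467 ± 0.358 to 19.6 ± 12.5 FPKM (3.51, adjusted p = 0.000395). *Ltc4s* and *Ggt5* act in turn on the cysteinyl leukotriene path, and they rose by 1.05 (adjusted p = 0.0217) and 1.44 (adjusted p = 0.00061) on the log2 scale. *Ltc4s* no longer passed without *Plod1-/-* saline mouse 3, 4 or 5 (0.97, 0.96 and 0.99). Of the *Plod1-/-* saline mice only mouse 2 reached 1 FPKM (1.93 FPKM), so *Ltc4s* entered the test mainly through the Ang II mice. Its call was also lost when genes were fitted whatever their level (adjusted p = 0.0587 by limma). After quantile normalization its log2 fold change was 0.91, short of the fold threshold. *Dpep2*, a dipeptidase of the same path, was higher in *Plod1-/-* than in WT mice under Ang II (1.83, adjusted p = 0.0204, but 0.0513 and 0.0534 without WT mouse 2 or 3), at medians of 5.06 and 0.196 FPKM. Of the WT Ang II mice only mouse 1 (3.84 FPKM) was above 1 FPKM. With no filter on low values the call was lost (adjusted p = 0.0618 by limma). Of the 6 leukotriene receptor genes 2 were tested in *Plod1-/-* mice and 1 rose, *Ltb4r1*, the high-affinity receptor of leukotriene B, from 0.530 ± 0.229 to 5.10 ± 2.07 FPKM. It too was below 1 FPKM in all 5 *Plod1-/-* saline mice and entered the test only through the Ang II mice. With no filter the log2 fold change was 1.94 (SE 0.22, adjusted p = 0.000451 by limma), and the groups did not overlap. The other receptor tested, *Gpr17*, was lower under Ang II (0.305 to 0.788 FPKM) than under saline (1.02 to 3.22 FPKM), with no overlap. It passed the adjusted threshold but not the fold threshold. No gene of these lists was a DEG under Ang II in WT mice, where 5 of the 10 and 1 of the 6 were tested.

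**Figure D5:**
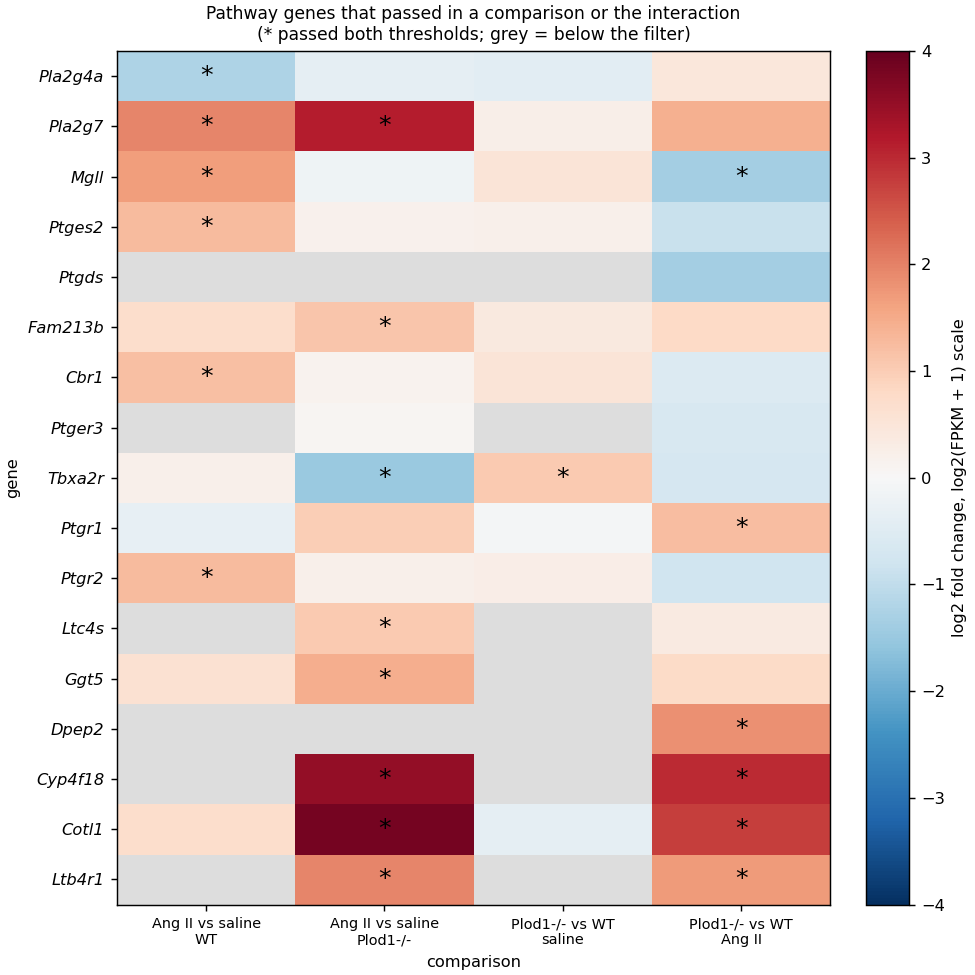
Log2 fold change of the 17 genes of the pathway list that passed in at least 1 comparison or in the comparison of responses, with a star for a DEG and grey for a gene below the filter. *Cyp4f18* (3.51) and *Cotl1* (3.81) have the highest values, both for Ang II in *Plod1-/-* mice, and *Tbxa2r* changes from 1.05 between the genotypes under saline to -1.497 for Ang II in *Plod1-/-* mice.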

How the data were processed

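RNA of the abdominal aorta was sequenced in 20 mice, and groups and replicate numbers were taken from the labels. The authors prepared TruSeq V2 libraries, removed ribosomal RNA reads, aligned with HISAT2, quantified with stringtie, cuffquant and cuffnorm, and deposited FPKM values per Ensembl gene. The submitters' processing notes name HISAT2 2.1.0, Bowtie2 2.2.3, HTSeq 0.6.0 and mm10. Read counts were not used here and depth is unknown. The step between low FPKM values put the libraries at a relative depth of 0.904 to 1.09.

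Symbols and coordinates came from GENCODE M21 (GRCm38), which holds 43226 of the 43422 genes. FPKM values were transformed to log2(FPKM + 1). Genes with FPKM of at least 1 in at least 5 mice were fitted with limma 3.58.1 (R 4.3.3) with a variance trend, and the interaction on all 20 mice. The study used edgeR, which needs counts and was not run. Genes below the filter were compared by two-sided exact permutation tests. The scripts were tested on simulated data. Figures were drawn with Python 3.11.15 and matplotlib 3.10.9.

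The members and lists were chosen with earlier results of these data known. Named genes are the 9 members, pathway genes that were DEGs in a comparison or the interaction, and the 3 nearest genes of each member. Of the pathway symbols, *Prxl2b* and *Ptgr3* were not matched under those names and *Fam213b* and *Zadh2* were. Results were recomputed with a pseudocount of 0.1, without the filter, with the replicate number as a block, quantile normalization, all groups in 1 fit, no variance trend, weights per mouse, the adjusted p-value alone, no libraries with *Xist* RNA, no mitochondrial genes, and each mouse left out in turn.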

Additional observations from a re-analysis of the deposited data

Results flagged for a closer look

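A mouse far from the other 4 of its group was looked for in 104 groups of 26 genes by Dixon's criterion (critical value 0.71 for 5 samples), which chance passes in about 1 group in 20, and 9 were found. Of these, 5 were in WT Ang II mouse 1, the library with the highest macrophage marker sum of its group. Its FPKM was 1.43 for *Tbxas1*, against 0.359 to 0.540 in the others, 5.26 for *Alox5* (others 1.01 to 1.41), 9.86 for *Alox5ap* (others 1.77 to 2.28), 2.48 for *Ltb4r1* (others 0.350 to 0.687) and 3.84 for *Dpep2* (others 0.161 to 0.211). In WT saline mice, *Ptges* was low in mouse 4 at 1.19 FPKM (others 1.53 to 1.66) and *Tbxas1* high in mouse 1 at 0.745 (others 0.239 to 0.321). *Mgll* was high in *Plod1-/-* saline mouse 2 at 63.3 (others 33.0 to 37.8), and *Ptgds* in *Plod1-/-* Ang II mouse 1 at 9.07 (others 0.160 to 0.387).

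The response to Ang II differed between the genotypes, by the limma interaction test, for 17 genes. These were 5 of the 9 genes and, of 34 pathway genes tested, 5 with a positive and 7 with a negative value. Across all 13263 genes tested, 16.1% passed. The difference on the log2 scale (response in *Plod1-/-* minus response in WT) was 4.09 for *Ptgs2*, -1.20 for *Ptgis*, 1.69 for *Tbxas1*, 1.52 for *Alox5* and 2.83 for *Alox5ap*. In the pathway list it was -1.87 for *Mgll*, -1.10 for *Ptges2*, -1.96 for *Ptgds*, -1.06 for *Cbr1*, -1.16 for *Ptger3*, -1.71 for *Tbxa2r*, 1.32 for *Ptgr1*, -1.07 for *Ptgr2*, 1.91 for *Dpep2*, 2.87 for *Cyp4f18*, 3.11 for *Cotl1* and 1.98 for *Ltb4r1*. Without *Plod1-/-* Ang II mouse 1 the *Ptgds* value was -2.57 (adjusted p = 0.00107 by limma).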

How the results depend on the processing

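Under the alternatives, no result changed direction past a threshold. In the WT comparison 1 of the 9 genes and 6 pathway genes were DEGs, and with the adjusted p-value alone, which 38.0% of all genes passed, 2 and 16 were. In *Plod1-/-* mice the 8 pathway DEGs became 13 with the adjusted p-value alone (43.8% of all genes) and 5 to 8 with each mouse left out (5 without Ang II-treated mouse 3). Under saline, leaving out each mouse gave 0 to 1 of the 9 genes and 0 to 1 pathway genes. Between the Ang II-treated genotypes 1373 of all 12356 genes were DEGs in the main fit. The 5 DEGs of the 9 genes became 3 with no filter (1135 of all 38986 genes) and 3 with the replicate number as a block (1129 of 12356). They became 3 to 5 with each mouse left out. The 6 pathway DEGs became 11 with weights per mouse, when 2134 of all 12356 genes were DEGs, and 10 with the adjusted p-value alone (31.2% of all genes). *Alox5* and *Ptgis* were the genes lost there. *Alox5* was also lost with quantile normalization (adjusted p = 0.0551 by limma) and without mitochondrial genes (0.0604), and its interaction with no filter (0.0579). The block changed no other call among the 9 genes, and in the pathway list it lost *Dpep2* there and the *Ptgds* interaction. Deviations of same-numbered mice had correlations of -0.33 to 0.45 (8 of 30 pairs above 0.1), with no common direction. Differently numbered mice were not set beside them, so these values cannot decide whether the numbers pair mice. Without mitochondrial genes, without the libraries with *Xist* RNA or without any 1 *Plod1-/-* Ang II mouse, *Tbxas1* fell below the filter and had no fit in *Plod1-/-* mice. Quantile normalization moved the median of all genes from 0.12 to -0.03 between the Ang II-treated genotypes. The unknown depth limits what can be said of *Tbxas1*, *Ptger4* and other genes below 1 FPKM.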
